A study of Mus musculus with 24 samples.

Results

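The genes described are the classical cadherins and their relatives outside the clustered protocadherins: every entry of the expression table named Cdh, Pcdh, Celsr or Fat followed by a number (with or without a final x or y for Pcdh). The rule used names only and found 43 of 32310 entries. Of these, 29 reached 1 FPKM (a length-scaled and depth-scaled measure of fragments from a transcript) in at least 2 of the 12 groups and were tested among 13946 such genes. A member that reached this level only where it is high had to differ between groups, so the 29 do not stand for the whole family.

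Cadherins are calcium-dependent adhesion molecules. Their outermost extracellular repeats bind cadherins of the same or a related kind on the facing cell, and the tails of the classical members hold catenins, which link the membrane to actin. Type II classical cadherins are known in the cortex for being expressed in some areas, layers and neuron classes and not in others, delta protocadherins bind more weakly and several recruit the WAVE actin regulator, and the Celsr and Fat proteins are very large members known for planar cell polarity.

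The neurons were purified by FACS from mouse cortex (strain CD1, outbred), with no treatment or engineered allele named in the labels. Callosal projection neurons connect the hemispheres, corticothalamic projection neurons reach the thalamus, and subcerebral projection neurons reach the spinal cord and brainstem. Each subtype was collected before birth at E15, E16 and E18 (embryonic day) and after birth at P1 (postnatal day), and each of the 12 groups has 2 labelled libraries but a single deposited value. The labels name neither the sort markers nor the animals behind each library.

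Each value is therefore the authors' pooled value, with no SD or n, and its depth is unknown. A subtype difference is the mean over the 4 stages, and a stage difference the mean over the 3 subtypes, of log2(FPKM + 1), with its standard error (SE) from limma. This scale understates changes of low genes, and a p-value reflects the evenness of a difference across stages or subtypes; it says nothing of how much libraries varied. In such bulk samples, fewer cells expressing a gene and less of its RNA per cell cannot be told apart. Each of the 3 lists of 6 subtype marker genes summed highest in the groups of its own label. The callosal list summed to between 701 and 963 FPKM in callosal groups and to at most 115 FPKM elsewhere. The subcerebral list summed to between 751 and 841 FPKM in subcerebral groups and to at most 301 FPKM elsewhere. The corticothalamic list was less distinct: it summed to between 562 and 815 FPKM in corticothalamic groups, but to 475 FPKM in E15 subcerebral neurons, against 92.7 to 201 FPKM in the later subcerebral groups. E15 subcerebral neurons also held less of the subcerebral marker Crym (8.66 FPKM) than E15 corticothalamic neurons (16.4 FPKM). The other genes of the subcerebral list (Bcl11b, Fezf2, Ldb2, Bhlhe22 and Pou3f1) were higher in E15 subcerebral than in E15 corticothalamic neurons. Against callosal neurons not all were. Pou3f1 was higher in callosal than in subcerebral neurons at E15 (55.2 against 4.57 FPKM), E16 (52.3 against 33.9 FPKM) and P1 (75.5 against 64.9 FPKM). At E18 it was slightly lower (51.1 against 52.5 FPKM). Bhlhe22 was nearly level between these subtypes at E15, at 126 and 127 FPKM. Lists for other cells differed between groups too. A list of 10 microglial genes summed to 42.9 FPKM in E16 callosal neurons and to between 5.30 and 21.7 FPKM in the other callosal groups, against 4.17 to 9.02 FPKM outside them. Aif1 made up most of the sum outside callosal groups; without it, the other 9 genes summed to 3.42, 37.1, 17.1 and 16.9 FPKM in callosal neurons from E15 to P1 and to between 0.236 and 1.03 FPKM elsewhere. A list of 8 interneuron genes summed to 65.6 FPKM in E15 callosal neurons and to between 2.64 and 29.3 FPKM elsewhere.

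Together the 43 members summed to between 520.04 and 721 FPKM per group, or 0.132% to 0.192% of all FPKM. Cdh2, the N-cadherin of neuronal junctions, held on average 22.8% of that sum, and Cdh13, a cadherin anchored by lipid with no tail for catenins, held 12.7%. Celsr3, needed for the growth of major axon tracts, held 11.9%. The composition differed between groups. Across the 12 groups, the 5 delta-2 protocadherins made up 2.17% to 13.5% of the summed level, and the 4 giant Fat genes 0.767% to 11.7%. These ranges join stage and subtype: within corticothalamic neurons the giant Fat share fell from 7.55% at E15 to 0.767% at P1.

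**Figure D1:**
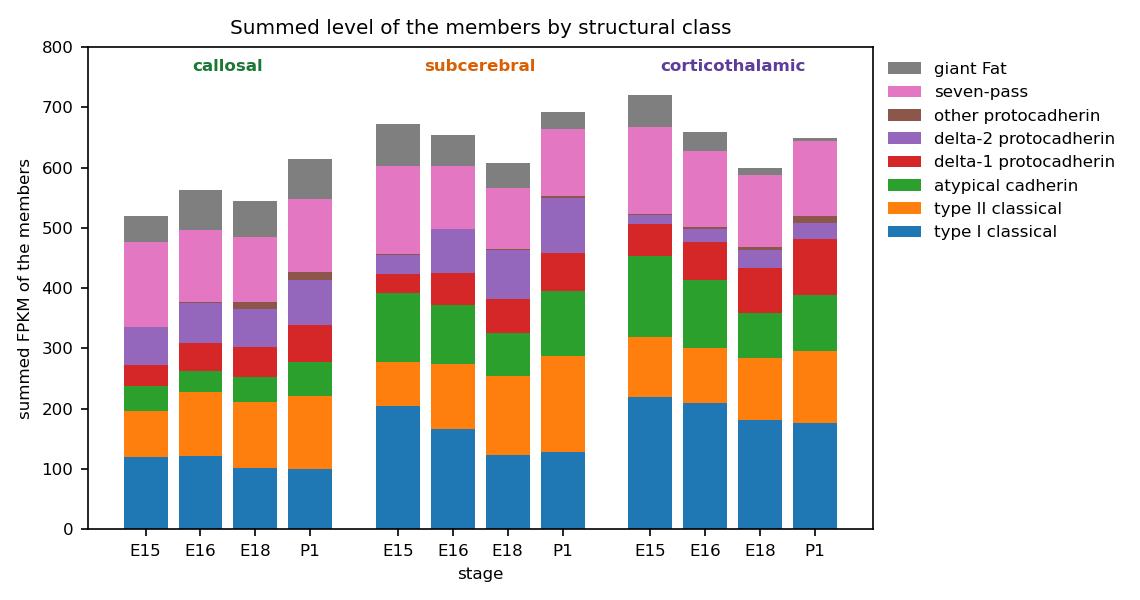
Stacked bars give the summed FPKM of the members in each of the 12 groups (x axis, stage within subtype), coloured by structural class. The total lies between 520.04 and 721 FPKM, and the giant Fat share at the top is smallest in P1 corticothalamic neurons.

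**Figure D2:**
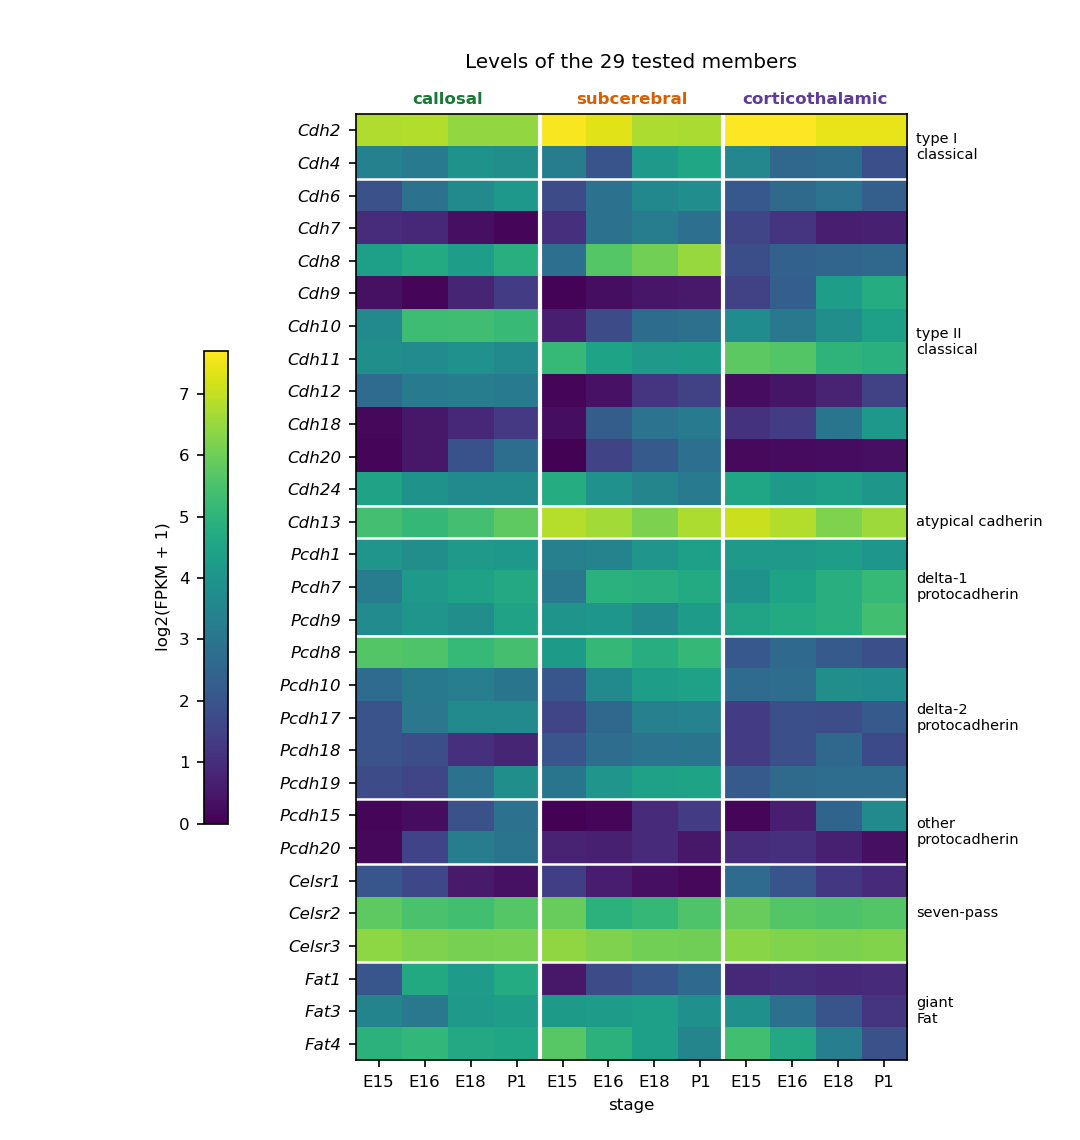
Heat map of log2(FPKM + 1) for the 29 tested members (rows of the map, by class) in the 12 groups (columns, stage within subtype), 1 pooled value per cell. Cdh2 and Celsr3 are high throughout, while Cdh9, Cdh12, Cdh20 and Fat1 are high in some subtypes and low in others.

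Which members set the subtypes apart was read from 3 comparisons. By limma, 19 of the 29 tested members passed in at least 1 of them (adjusted p under 0.05), against 53.3% of all genes tested. Between callosal and subcerebral neurons, 5 members were higher in callosal neurons (14.1% of all genes) and 7 were lower (15.2%). Between callosal and corticothalamic neurons, 6 were higher in callosal neurons (15.3%) and 7 were lower (16%). Between subcerebral and corticothalamic neurons, 7 were higher in subcerebral neurons (14.7%) and 7 were lower (12.8%). These shares are near or somewhat above those of all genes, but the sizes of the differences were larger. Passing differences of at least 1 on the log2 scale numbered 8 between callosal and subcerebral neurons (4.29% of all genes), 10 between callosal and corticothalamic neurons (6.15%) and 10 between subcerebral and corticothalamic neurons (3.6%). The median size of a difference among the 29 was 0.53, 0.94 and 0.83 in the same order, against 0.19, 0.18 and 0.19 over all genes. The counts moved when a stage was left out, and so did the share called of all genes. The 12 calls between callosal and subcerebral neurons (29.3% of all genes in either direction) became 13 without E15 (44.3%), 3 without E16 (8.01%), 4 without E18 (7.29%) and 7 without P1 (16%). The 14 between subcerebral and corticothalamic neurons (27.5%) became 19 without E15 (44.9%), 4 without E16 (2.37%), 3 without E18 (1.8%) and 6 without P1 (7.54%).

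Some members were called higher, or lower, in a single subtype than in both others. By this rule no member can be called highest in more than a single subtype. Several of these calls were lost when a stage was left out, as given below by gene. Cdh10, Cdh12, Fat1 and Pcdh8 were called higher in callosal neurons than in both others (4 members, 7.06% of all genes). Cdh7 and Pcdh19 were called higher in subcerebral neurons than in both others (2 members, 4.16%). Cdh2, Cdh9, Cdh11, Celsr1 and Pcdh9 were called higher in corticothalamic neurons than in both others (5 members, 6.09%). In the other direction, Cdh2, Cdh11, Cdh13 and Cdh18 were called lower in callosal neurons than in both others (4 members, 7.69%), Cdh10 and Celsr1 in subcerebral neurons (2 members, 3.85%) and Cdh8, Pcdh8 and Pcdh17 in corticothalamic neurons (3 members, 5.96%).

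**Figure D3:**
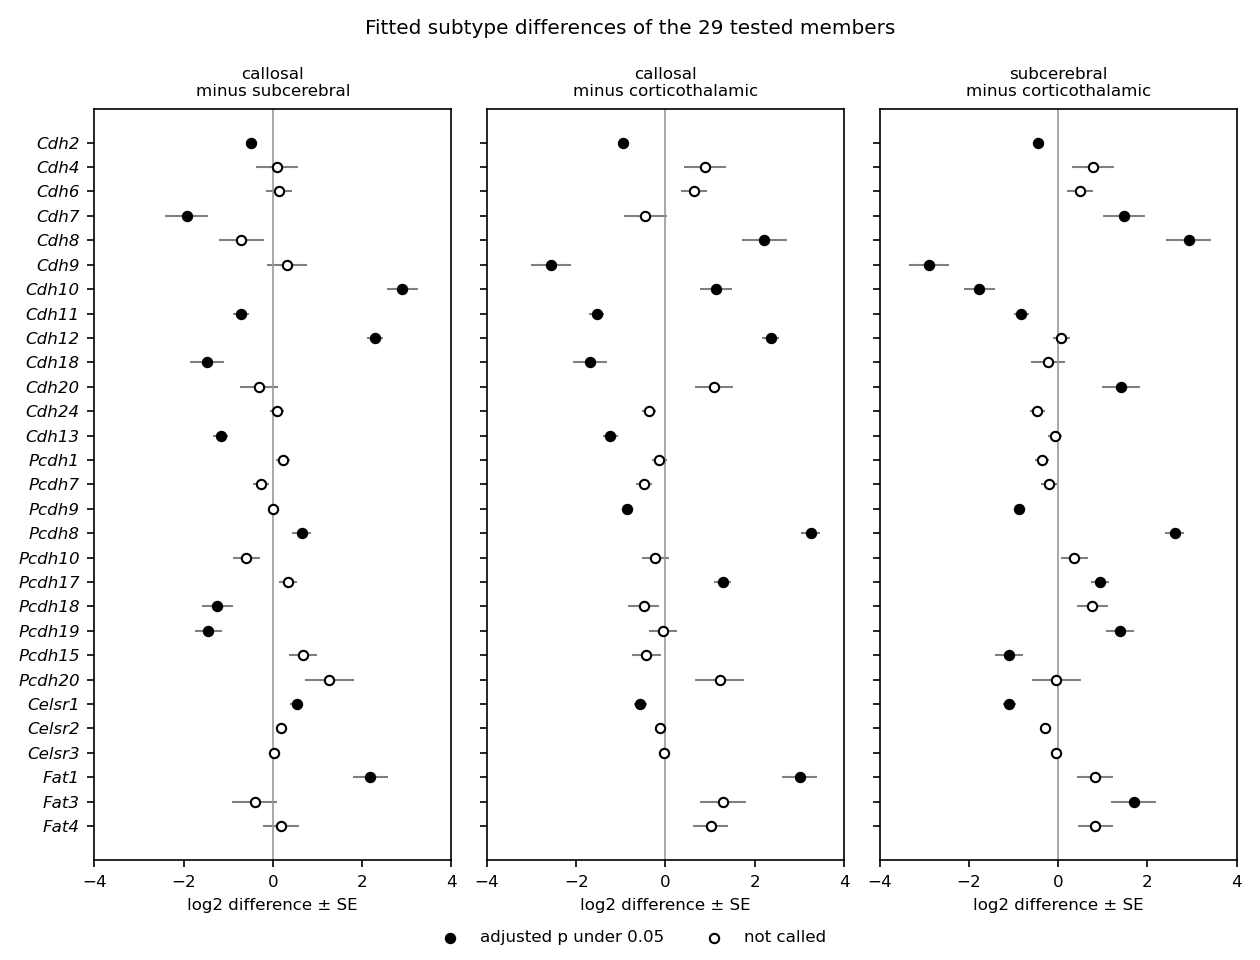
Points give the fitted difference of log2(FPKM + 1) between subtypes, the mean over 4 stages, for each tested member, and bars the SE. Filled points passed by limma. Pcdh8 lies farthest right and Cdh9 farthest left in the middle panel, at 3.25 and -2.56.

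Among the delta-2 protocadherins, Pcdh8 was high in callosal and subcerebral neurons and low in corticothalamic neurons at every stage. Pcdh8 (arcadlin) is known for being induced by neuronal activity and for driving N-cadherin from the membrane. It stood at 49.3, 46.9, 34.5 and 42.5 FPKM in callosal neurons at E15, E16, E18 and P1, at 17.2, 34.1, 26.8 and 34.1 FPKM in subcerebral neurons, and at 3.39, 5.14, 3.58 and 2.66 FPKM in corticothalamic neurons. The corticothalamic values overlapped with neither of the other subtypes. By limma, Pcdh8 was higher in callosal than in corticothalamic neurons by 3.25 ± 0.20 (SE, adjusted p = 3.33e-05). It was higher in subcerebral than in corticothalamic neurons by 2.61 ± 0.20 (limma, adjusted p = 0.000685). For Pcdh8, both calls were kept in each of the 10 alternatives. Its difference between callosal and subcerebral neurons, 0.64 ± 0.20 (limma, adjusted p = 0.045), was kept in 3 of 10 alternatives and was lost without any 1 stage, with adjusted p between 0.0547 without P1 and 0.133 without E16.

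The 250 bases before the annotated start of Pcdh8 are shown because it had the largest subtype difference among the members. They are from RefSeq (GRCm38.p6, chr14:79771313-79771562, minus strand), and capitals mark an octamer.
Pcdh8: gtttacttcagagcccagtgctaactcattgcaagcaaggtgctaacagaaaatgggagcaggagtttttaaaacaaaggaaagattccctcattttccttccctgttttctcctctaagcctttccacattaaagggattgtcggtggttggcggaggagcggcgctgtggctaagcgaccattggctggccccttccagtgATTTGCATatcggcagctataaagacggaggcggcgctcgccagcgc
The octamer ATGCAAAT, which POU factors are known to bind, lies here as its reverse complement. It was 1 of 5 motifs searched on both strands, chosen after the expression values were known. ATGCAAAT was in 1.6% of 32851 promoter windows of this length and in 1 of the 28 members with a window. TATAAA was in 12.4% of all windows and in 2 members, Pcdh8 and Pcdh15. CAGATG was in 14.4% of all windows and in 3 members (Cdh7, Cdh24 and Celsr2), AACAAT in 9.42% and in Fat1, and AGGTGTGA in 1.12% and in no member's window. A match says only that these letters are present.

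The other delta-2 genes divided differently. Pcdh19, an X-linked gene known from a childhood epilepsy, was at 6.90, 15.2, 20.3 and 21.2 FPKM in subcerebral neurons from E15 to P1. Its levels were 2.40, 2.07, 6.38 and 13.3 FPKM in callosal neurons and 3.57, 5.28, 5.72 and 5.71 FPKM in corticothalamic neurons. Subcerebral neurons were highest at each stage, and callosal neurons passed corticothalamic neurons only at E18 and P1. By limma, the subcerebral excess was 1.44 ± 0.31 over callosal neurons (adjusted p = 0.0108; written as callosal minus subcerebral, -1.44) and 1.39 ± 0.31 over corticothalamic neurons (adjusted p = 0.0159). Both were lost without E16 (limma, adjusted p = 0.0605 and 0.0601) and without E18 (0.0825 and 0.13).

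Pcdh17, which recruits the WAVE complex in axons that grow along one another, was at 2.91, 7.27, 11.5 and 11.6 FPKM in callosal neurons and at 2.07, 4.97, 9.18 and 9.61 FPKM in subcerebral neurons. Corticothalamic neurons held 1.55, 2.65, 2.51 and 3.50 FPKM. Levels in the first 2 subtypes rose with stage side by side, and corticothalamic neurons were lowest at each stage. By limma, the callosal excess over corticothalamic neurons was 1.28 ± 0.19 (adjusted p = 0.00184), kept in every alternative. The subcerebral excess of 0.94 ± 0.19 (limma, adjusted p = 0.0127) was lost without E16, E18 or P1 (0.0794, 0.0967 and 0.0786).

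Pcdh18 moved apart between callosal and subcerebral neurons. It went from 2.93 and 2.58 FPKM at E15 and E16 to 1.10 and 0.741 FPKM at E18 and P1 in callosal neurons, while subcerebral neurons held 3.06, 5.81, 6.65 and 6.76 FPKM. Corticothalamic neurons were at 1.59, 2.70, 5.13 and 2.34 FPKM. The callosal minus subcerebral difference was -1.25 ± 0.35 (limma, adjusted p = 0.0287), and it was lost without E16, E18 or P1 (0.107, 0.129 and 0.148). Pcdh10, also a WAVE recruiter, ranged from 3.21 to 20.2 FPKM and passed in no subtype comparison.

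Cdh8 and Cdh11, type II cadherins that are neighbours in the genome with no other protein-coding gene between them in RefSeq, differed in subtype order. Corticothalamic neurons held the least Cdh8 and the most Cdh11 at every stage, while the whole order was reversed only at E15. Cdh8 was at 19.2, 25.3, 19.0 and 27.9 FPKM in callosal neurons at E15, E16, E18 and P1. In subcerebral neurons it was at 5.96, 50.0, 65.3 and 91.0 FPKM, and in corticothalamic neurons at 2.61, 4.23, 4.69 and 5.11 FPKM. The subcerebral value lay below the callosal one at E15 and above it at the 3 later stages, and corticothalamic neurons were lowest throughout. By limma, callosal neurons exceeded corticothalamic neurons by 2.22 ± 0.50 (adjusted p = 0.0118; 0.08 without E16). The subcerebral excess over corticothalamic neurons was 2.92 ± 0.50 (limma, adjusted p = 0.00772). That call was lost without E16, E18 or P1 (0.0748, 0.0819 and 0.0524). Without E15 the excess was 3.58 (limma, adjusted p = 0.000101). The share called of all genes in this comparison was higher without E15 too. At E15 the subcerebral group held more of the corticothalamic marker list than later, and the part of that list in this change was not tested.

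Cdh11 was lowest in callosal neurons, at 13.4, 12.2, 14.0 and 11.9 FPKM. Subcerebral neurons held 35.0, 21.0, 17.0 and 17.5 FPKM and corticothalamic neurons 53.5, 49.2, 31.5 and 28.4 FPKM. The order was the same at each of the 4 stages, and the callosal values overlapped with neither other subtype. Callosal minus corticothalamic was -1.54 ± 0.17 (limma, adjusted p = 0.000457), kept in every alternative. Callosal minus subcerebral was -0.71 (limma, adjusted p = 0.0175), lost without E16 (0.0764) and without P1 (0.0529). The subcerebral minus corticothalamic difference was -0.83 (limma, adjusted p = 0.0134; lost without E16, E18 or P1, at 0.0961, 0.0814 and 0.0543). Over the 12 groups, Cdh8 and Cdh11 had a Pearson correlation of -0.76, a description over values that share stages and subtypes.

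A second run of neighbours holds Cdh6, Cdh9, Cdh10, Cdh12 and Cdh18, in that order in RefSeq, with 1 protein-coding gene between the last pair and none between the others. These 5 type II cadherins had different leading subtypes. Cdh10 and Cdh12 were highest in callosal neurons, Cdh9 in corticothalamic neurons, and Cdh18 was lowest in callosal neurons. Cdh6 ranged from 2.36 to 16.2 FPKM and passed in no subtype comparison.

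Cdh10 was at 11.9, 39.1, 39.6 and 36.4 FPKM in callosal neurons, at 0.562, 2.38, 5.55 and 6.21 FPKM in subcerebral neurons and at 12.6, 7.48, 13.1 and 19.6 FPKM in corticothalamic neurons. At E15 callosal and corticothalamic neurons were close, and callosal neurons were highest at the later stages. By limma, the callosal excess over subcerebral neurons was 2.90 ± 0.36 (adjusted p = 0.00114), kept in every alternative. The excess over corticothalamic neurons, 1.14 ± 0.36 (limma, adjusted p = 0.0407), was lost without E16, E18 or P1 (0.219, 0.172 and 0.0894) and in 3 other alternatives. Subcerebral minus corticothalamic was -1.76 ± 0.36 (limma, adjusted p = 0.0122), lost without E16, E18 or P1 (0.0559, 0.0813 and 0.0572).

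Cdh12 was at 5.42, 8.14, 8.63 and 8.17 FPKM in callosal neurons. It was at 0.071, 0.297, 1.30 and 1.85 FPKM in subcerebral neurons and at 0.193, 0.345, 0.666 and 1.81 FPKM in corticothalamic neurons. Every callosal value exceeded every other value. By limma, the callosal excess was 2.29 ± 0.19 over subcerebral neurons (adjusted p = 0.000203) and 2.36 ± 0.19 over corticothalamic neurons (adjusted p = 8.66e-05), both kept in every alternative. The microglial sum without Aif1 was also higher in callosal groups than elsewhere. The interneuron sum was 65.6, 3.99, 2.64 and 3.64 FPKM in callosal neurons from E15 to P1. In corticothalamic neurons the interneuron sum was 7.86, 17.5, 15.2 and 29.3 FPKM. The part of these lists in the callosal excess of Cdh10 and Cdh12 was not tested.

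Cdh9, known for its part in specific hippocampal synapses, was at 1.80, 3.95, 19.0 and 26.3 FPKM in corticothalamic neurons from E15 to P1. It was at 0.266, 0.108, 0.746 and 1.54 FPKM in callosal neurons and at 0.0478, 0.226, 0.371 and 0.448 FPKM in subcerebral neurons. Every corticothalamic value was above every other value. Callosal minus corticothalamic was -2.56 ± 0.45 (limma, adjusted p = 0.0038), kept in every alternative, and subcerebral minus corticothalamic was -2.88 ± 0.45 (limma, adjusted p = 0.00581; 0.0698 without E18).

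Cdh18 was at 0.118, 0.400, 0.836 and 1.43 FPKM in callosal neurons. Subcerebral neurons held 0.229, 3.82, 6.62 and 8.11 FPKM and corticothalamic neurons 1.19, 1.52, 7.04 and 16.1 FPKM. Callosal neurons were lowest at each stage, while the order of the other two changed. Callosal minus subcerebral was -1.47 ± 0.38 (limma, adjusted p = 0.0237), lost without E16, E18 or P1 (0.0866, 0.155 and 0.0776). Callosal minus corticothalamic was -1.69 ± 0.38 (limma, adjusted p = 0.012), lost without E18 or P1 (0.0833 and 0.0605).

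**Figure D4:**
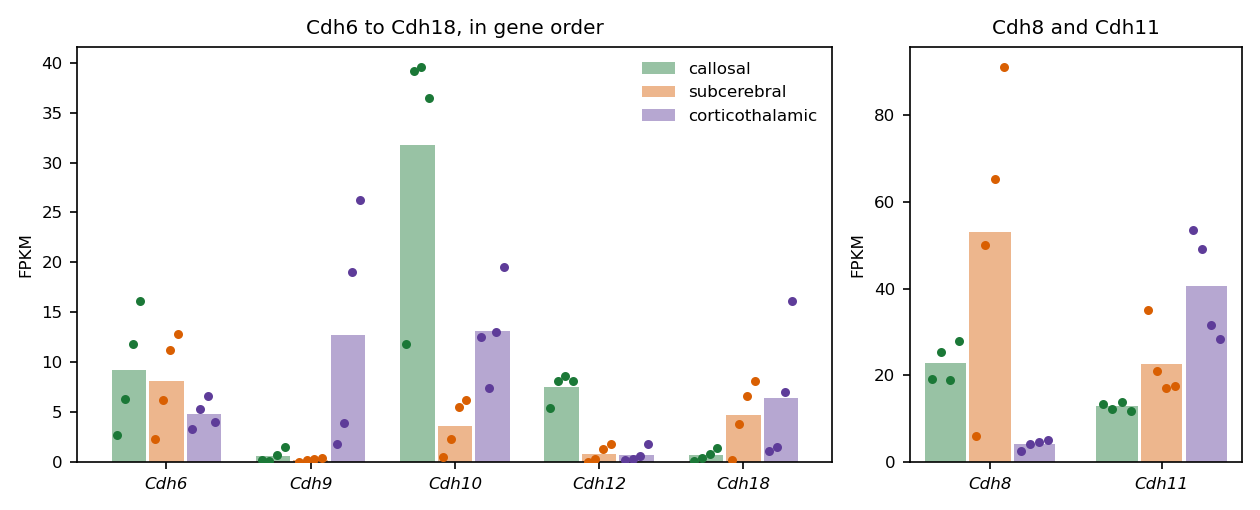
FPKM of neighbouring type II cadherins in genome order; points are the 4 stages (left to right, E15 to P1), bars their mean, colours the subtypes, and the y axes differ. Cdh12 is highest in callosal neurons and Cdh9 in corticothalamic neurons. Cdh8 is lowest in corticothalamic neurons and Cdh11 is highest there.

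The promoters of 4 of these neighbours are shown to set genes with different leading subtypes side by side. Each is the 250 bases before the RefSeq start on GRCm38.p6, plus strand. For Cdh12, the bases after this start were not found in a GENCODE vM21 transcript of the gene. Capitals mark CG dinucleotides, a feature counted after the sequences and values had been seen. Cdh9 is at chr15:16728665-16728914, Cdh10 at chr15:18820079-18820328, Cdh12 at chr15:21111202-21111451 and Cdh18 at chr15:23036213-23036462.
Cdh9: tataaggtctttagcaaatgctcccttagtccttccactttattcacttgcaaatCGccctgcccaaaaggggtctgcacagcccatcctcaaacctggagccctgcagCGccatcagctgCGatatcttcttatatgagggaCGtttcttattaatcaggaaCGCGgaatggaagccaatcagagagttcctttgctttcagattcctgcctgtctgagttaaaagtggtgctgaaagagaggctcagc
Cdh10: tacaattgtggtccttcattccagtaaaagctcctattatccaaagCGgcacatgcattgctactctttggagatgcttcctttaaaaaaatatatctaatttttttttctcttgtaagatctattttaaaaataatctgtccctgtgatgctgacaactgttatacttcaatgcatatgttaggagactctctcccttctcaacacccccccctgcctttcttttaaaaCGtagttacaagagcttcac
Cdh12: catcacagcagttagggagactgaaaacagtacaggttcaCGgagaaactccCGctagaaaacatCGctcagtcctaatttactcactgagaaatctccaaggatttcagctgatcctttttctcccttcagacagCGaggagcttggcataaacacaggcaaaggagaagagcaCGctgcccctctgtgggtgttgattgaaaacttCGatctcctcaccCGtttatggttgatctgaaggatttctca
Cdh18: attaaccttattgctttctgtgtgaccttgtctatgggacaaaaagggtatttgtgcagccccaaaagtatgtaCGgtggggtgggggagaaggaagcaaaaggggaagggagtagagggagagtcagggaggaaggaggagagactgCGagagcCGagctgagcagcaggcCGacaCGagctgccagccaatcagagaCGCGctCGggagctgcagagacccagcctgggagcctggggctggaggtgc
Cdh9, Cdh10, Cdh12 and Cdh18 held 6, 2, 7 and 8 CG dinucleotides, against a median of 6 over all 32851 windows. G and C made up 48%, 36.8%, 46.8% and 58% of the bases, against a median of 52.4%. None of the 5 motifs named above was found in these 4 windows. Cdh10 and Cdh12, with the same leading subtype, had a Pearson correlation of 0.79 over the 12 groups, Cdh9 and Cdh10 of 0.27, and Cdh12 and Cdh18 of -0.28.

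Cdh7 and Cdh20 were low at E15 and later present in subcerebral neurons. Cdh7 was at 1.07, 6.33, 8.65 and 5.99 FPKM in subcerebral neurons, at 0.952, 0.834, 0.242 and 0.0851 FPKM in callosal neurons and at 2.04, 1.22, 0.555 and 0.590 FPKM in corticothalamic neurons. Corticothalamic neurons were highest at E15, and subcerebral neurons at the 3 later stages. Callosal minus subcerebral was -1.93 ± 0.47 (limma, adjusted p = 0.0183; 0.106, 0.118 and 0.102 without E16, E18 or P1). The subcerebral minus corticothalamic difference was 1.49 ± 0.47 (limma, adjusted p = 0.0479; 0.192, 0.244 and 0.188 without the same stages). Without E15 these were -2.55 and 2.16 (limma, adjusted p = 0.000245 and 0.000477).

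Cdh20 was at 0.0333, 1.98, 3.54 and 6.002 FPKM in subcerebral neurons and at 0.0902, 0.417, 2.88 and 5.92 FPKM in callosal neurons. Corticothalamic neurons held 0.153, 0.159, 0.206 and 0.241 FPKM. At P1 the callosal and subcerebral values were nearly equal. Subcerebral minus corticothalamic was 1.40 ± 0.43 (limma, adjusted p = 0.0423; 0.14, 0.212 and 0.143 without E16, E18 or P1), and callosal minus corticothalamic did not pass, at 1.09 ± 0.43 (limma, adjusted p = 0.0853). Cdh24, the last tested type II member, ranged from 7.93 to 26.1 FPKM and passed in no subtype comparison.

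Of the type I cadherins, Cdh2 was the most abundant member in all groups but P1 subcerebral neurons, where Cdh13 was. Cdh2 was at 110.5, 112, 86.3 and 86.0 FPKM in callosal neurons, at 196, 163, 106 and 105 FPKM in subcerebral neurons and at 208, 205, 175 and 173 FPKM in corticothalamic neurons. The order was the same at every stage. Callosal minus corticothalamic was -0.94 ± 0.11 (limma, adjusted p = 0.000457), kept in every alternative. Callosal minus subcerebral, -0.49, was no longer called without E16 (-0.47; limma, adjusted p = 0.0893) or without E18 (-0.55; 0.0526). Subcerebral minus corticothalamic, -0.46, was no longer called without E16 (-0.50; limma, adjusted p = 0.0961), E18 (-0.37; 0.15) or P1 (-0.37; 0.0973). Cdh4, the R-cadherin, ranged from 2.70 to 22.1 FPKM and passed in no subtype comparison.

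Cdh13 was lower in callosal neurons than in both others. It was at 41.5, 34.3, 41.4 and 55.0 FPKM in callosal neurons, at 115, 97.7, 71.6 and 108 FPKM in subcerebral neurons and at 134, 113, 74.0 and 94.1 FPKM in corticothalamic neurons. The callosal values overlapped with neither other subtype. Callosal minus subcerebral was -1.17 ± 0.16 (limma, adjusted p = 0.00201) and callosal minus corticothalamic -1.24 ± 0.16 (limma, adjusted p = 0.000969), both kept in every alternative.

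At P1, the 3 tested giant Fat genes were lowest in corticothalamic neurons. Fat1, which acts on actin and on Hippo signalling, was at 3.21, 24.5, 17.8 and 25.7 FPKM in callosal neurons and at 0.414, 2.41, 3.27 and 5.18 FPKM in subcerebral neurons. In corticothalamic neurons it was at 0.820, 1.03, 0.824 and 0.908 FPKM. Callosal neurons were highest at each stage. The callosal excess was 3.01 ± 0.39 over corticothalamic neurons (limma, adjusted p = 0.000986), kept in every alternative, and 2.18 ± 0.39 over subcerebral neurons (limma, adjusted p = 0.00578), lost without E16 (0.0592) or E18 (0.0528). The microglial sum without Aif1 was 3.42, 37.1, 17.1 and 16.9 FPKM in the same callosal groups, lowest at E15 as Fat1 was, and its part in the Fat1 values was not tested.

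Fat3 was at 10.1, 7.49, 16.6 and 19.0 FPKM in callosal neurons, at 17.5, 18.04, 19.2 and 13.5 FPKM in subcerebral neurons and at 13.5, 6.10, 3.00 and 1.26 FPKM in corticothalamic neurons. Only the corticothalamic values fell at each step. The subcerebral minus corticothalamic difference was 1.70 ± 0.51 (limma, adjusted p = 0.0393; 0.127, 0.202 and 0.103 without E16, E18 or P1). Fat4, a partner of Dchs1, was at 30.1, 33.7, 24.4 and 22.2 FPKM in callosal neurons, at 51.4, 30.1, 19.6 and 10.3 FPKM in subcerebral neurons and at 40.2, 24.0, 8.77 and 2.77 FPKM in corticothalamic neurons, and passed in no subtype comparison.

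The seven-pass genes differed in kind. Celsr2 and Celsr3 were high and even, at 30.2 to 59.3 and 64.9 to 85.7 FPKM, and passed in no subtype comparison. Celsr1, a core planar polarity gene known from progenitors, was low: 3.15, 2.17, 0.460 and 0.275 FPKM in callosal neurons, 1.67, 0.506, 0.233 and 0.123 FPKM in subcerebral neurons and 5.44, 2.98, 1.37 and 0.901 FPKM in corticothalamic neurons. The order was the same at every stage. Subcerebral minus corticothalamic was -1.09 ± 0.14 (limma, adjusted p = 0.00288), kept in every alternative that tested it. Callosal minus subcerebral, 0.53, was lost without E15, E16 or E18 (limma, adjusted p = 0.0544, 0.131 and 0.0758), and callosal minus corticothalamic, -0.56, without E15 or E18 (0.0554 and 0.1). A list of 6 radial glia and astrocyte genes fell over the same stages, from 43.9 to 50.6 FPKM at E15 to between 16.03 and 20.7 FPKM at P1, while nearly level between subtypes at E15. Of 9 genes of proliferating cells and progenitors, 7 had the subtype order of Celsr1 at E15. Nes and Pcna did not: both were highest in callosal neurons at E15, and Pcna rose in each subtype by P1. The 9 genes summed to 62.6, 39.8 and 60.8 FPKM in callosal, subcerebral and corticothalamic neurons at E15. At P1 they summed to 58.7, 53.8 and 59.8 FPKM. Pcna made up most of each P1 sum, and in corticothalamic neurons it rose from 29.9 FPKM at E15 to 54.8 FPKM at P1. Hes1 rose in callosal and subcerebral neurons, to 6.83 and 13.5 FPKM at P1. Mki67, Top2a, Sox2, Pax6, Nes, Hes5 and Eomes were lower at P1 than at E15 in each subtype, as Celsr1 was. Eomes, a marker of intermediate progenitors, was at 7.31 FPKM in corticothalamic, 4.84 FPKM in callosal and 1.11 FPKM in subcerebral neurons at E15, and at most 0.126 FPKM at P1. The part of progenitor RNA in the Celsr1 values was not tested.

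Pcdh9, a delta-1 protocadherin, was at 12.05, 15.3, 12.9 and 20.5 FPKM in callosal neurons, 14.7, 15.4, 11.9 and 17.6 FPKM in subcerebral neurons and 21.5, 25.1, 28.3 and 40.4 FPKM in corticothalamic neurons. Corticothalamic values overlapped with neither other subtype. Callosal minus corticothalamic was -0.87 ± 0.11 and subcerebral minus corticothalamic -0.88 ± 0.11 (limma, adjusted p = 0.000805 and 0.00251), both kept in every alternative. Pcdh1 and Pcdh7, of the same class, ranged from 9.30 to 19.5 and from 7.41 to 35.2 FPKM and passed in no subtype comparison. Pcdh15, known as a tip-link protein of hair cells, was at 0.0874, 0.205, 2.73 and 6.47 FPKM in callosal neurons, at 0.0306, 0.0990, 0.928 and 1.53 FPKM in subcerebral neurons and at 0.0837, 0.574, 4.55 and 11.6 FPKM in corticothalamic neurons. The groups were close at E15 and apart at P1. A list of 5 genes of the oligodendrocyte lineage also rose from E15 to E18 and changed little from E18 to P1. Its sum was highest in corticothalamic neurons at each stage. The list summed to 0.141, 0.582, 2.74 and 2.88 FPKM in callosal neurons and to 0.158, 0.327, 1.67 and 1.43 FPKM in subcerebral neurons. In corticothalamic neurons it summed to 0.424, 0.918, 3.47 and 3.44 FPKM. Its part in the Pcdh15 values, and in their rise with stage, was not tested. The subcerebral minus corticothalamic difference was -1.11 ± 0.32 (limma, adjusted p = 0.0345; 0.104, 0.2 and 0.122 without E16, E18 or P1). Pcdh20 reached 8.37 and 6.84 FPKM in callosal neurons at E18 and P1 and at most 1.06 FPKM in the other subtypes, and its subtype differences did not pass.

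Between E15 and P1 more members rose than fell. By limma, 14 of the 29 were higher at P1 (33.8% of all genes) and 6 were lower (33.6%). The median size of the difference was 1.06, against 0.46 over all genes. Type II cadherins gave 7 of the rises, among them Cdh18 by 2.33 ± 0.44 and Cdh12 by 1.06 ± 0.22 (limma, adjusted p = 0.0018 and 0.00249). Pcdh15 rose by 2.54 ± 0.37, Pcdh17 by 1.43 ± 0.22 and Pcdh7 by 1.42 ± 0.21 (limma, adjusted p = 0.000392, 0.000563 and 0.000405). The other rises were of Cdh6, Cdh8, Cdh9, Cdh10, Cdh20, Fat1, Pcdh9, Pcdh10 and Pcdh19. Celsr1 fell by 1.57 and Cdh24 by 0.97 (limma, adjusted p = 6.68e-05 and 0.00194), beside Fat4, Cdh11, Cdh2 and Celsr3. Of the 20 calls, 9 were kept in every alternative (Cdh2, Cdh12, Cdh18, Cdh24, Celsr1, Pcdh7, Pcdh9, Pcdh15 and Pcdh17), and without subcerebral neurons the count was 12. Stage cannot be told apart from differences in collection or preparation shared by the groups of a stage.

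Whether a subtype difference changed with stage was tested as a difference in slope over the stages scored 1 to 4. By limma, 16 of the 29 members passed in at least 1 of the 3 slope tests, against 30.8% of all genes. The counts were 9 for callosal against subcerebral neurons (20.5% of all genes), 7 for callosal against corticothalamic neurons (10.2%) and 11 for subcerebral against corticothalamic neurons (14.9%). Fat3 and Fat4 declined in corticothalamic neurons relative to callosal neurons, with slope differences of 1.25 ± 0.13 and 1.00 ± 0.08 per stage step (limma, adjusted p = 0.0066 and 0.00449). Cdh6 rose to 16.2 FPKM in callosal and 12.8 FPKM in subcerebral neurons at P1 and stood at 4.04 FPKM in corticothalamic neurons, with slope differences of 0.64 ± 0.07 and 0.59 ± 0.07 against the latter (limma, adjusted p = 0.00601 and 0.00812). Cdh9 moved the other way, with a slope difference of -1.03 ± 0.15 between subcerebral and corticothalamic neurons (limma, adjusted p = 0.0138), and Cdh8 had one of -1.04 ± 0.25 between callosal and subcerebral neurons (limma, adjusted p = 0.0317). These tests had 4 residual degrees of freedom, or 2 with a stage left out. None of the members' slope calls was kept in all 9 alternatives. Without E18, limma called 0 members in each of the 3 slope tests, while 13, 9 and 16 had an unadjusted p under 0.05. The limma adjusted p without E18 was 0.0804 for Fat3, 0.0587 for Fat4, 0.0587 and 0.0726 for Cdh6, 0.0826 for Cdh9 and 0.141 for Cdh8. Without E15, the Cdh8 slope difference was -0.36 (limma, adjusted p = 0.17). Without P1 the calls were 1, 0 and 0, with 12, 12 and 13 at an unadjusted p under 0.05.

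**Figure D5:**
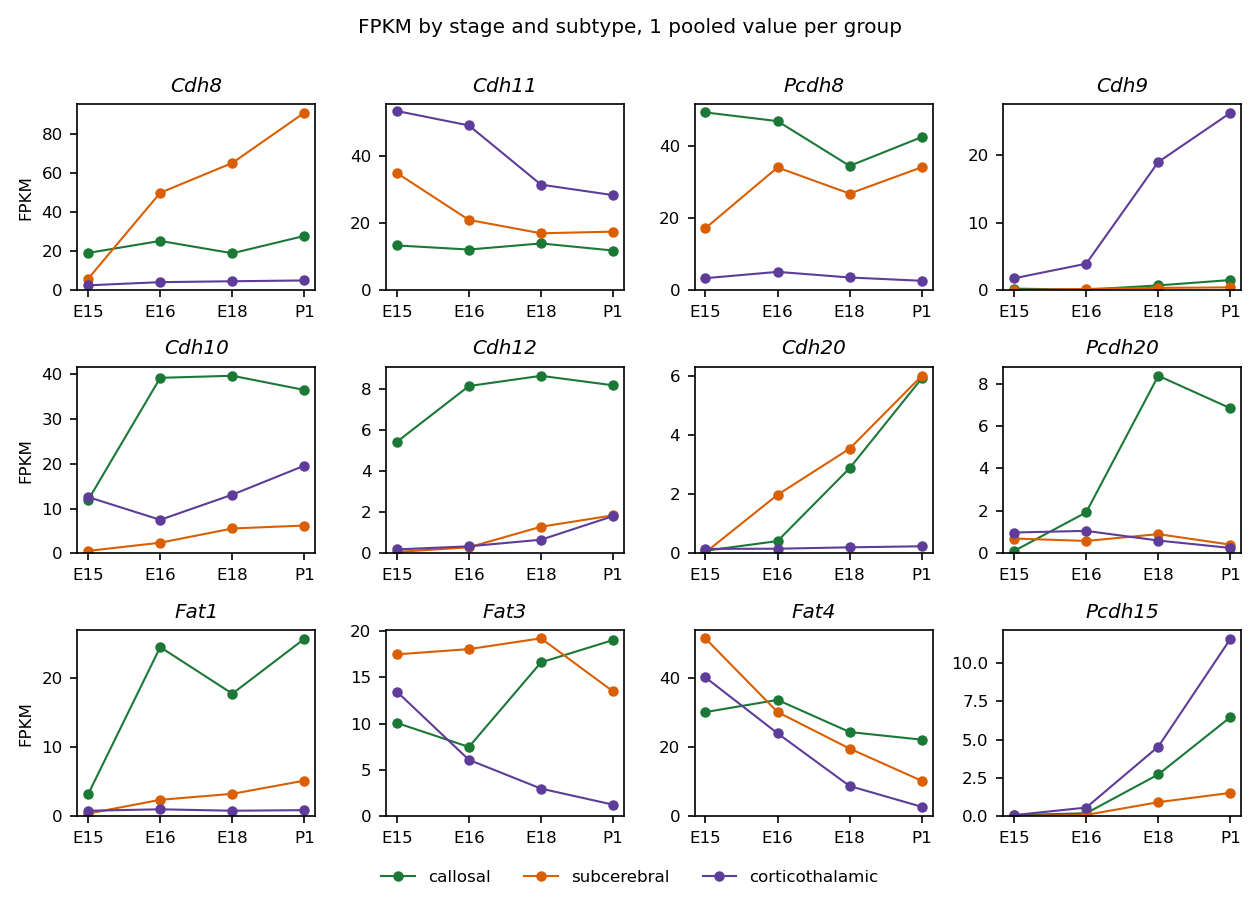
FPKM (y axis, scale differs by panel) against stage (x axis) for 12 members, 1 pooled value per point and a line per subtype. Cdh9 separates in corticothalamic neurons after E16, and Fat3 and Fat4 end lowest there, at 1.26 and 2.77 FPKM.

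Of 406 pairs of tested members, 4 had a Pearson correlation above 0.9 over the 12 groups: Cdh2 with Cdh11 (0.93), Cdh24 with Celsr3 (0.92), Cdh9 with Pcdh9 (0.91) and Cdh6 with Cdh20 (0.91). Cdh6 with Celsr3 (-0.91) and Pcdh17 with Cdh24 (-0.90) were the 2 pairs below -0.9. The 12 points share stages and subtypes, so these are descriptions.

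The genes that cadherin tails work through were read from lists. Of 9 catenins, 8 were tested. Ctnna1, the epithelial alpha-catenin, was lower in subcerebral neurons than in corticothalamic neurons by 1.31 ± 0.15 (limma, adjusted p = 0.002; subcerebral minus corticothalamic, -1.31), and Ctnnd2, the neuronal delta-catenin, had a callosal minus subcerebral difference of -1.19 ± 0.17 (limma, adjusted p = 0.0022). Between E15 and P1, 2 catenins rose and 4 fell, against 33.8% and 33.6% of all genes. All 9 genes of the WAVE list were tested, of which 6 rose and 2 fell between E15 and P1, against the same 33.8% and 33.6%. The largest subtype difference there was Wasf1, at -0.91 ± 0.09 for callosal minus subcerebral (limma, adjusted p = 0.00056). Of 13 partners of Fat and Celsr proteins, 11 were tested. Prickle1 and Vangl1, planar polarity genes, had callosal minus corticothalamic differences of -3.20 ± 0.55 and -1.66 ± 0.09 (limma, adjusted p = 0.0035 and 1.5e-05). Dchs1, the ligand of Fat4, fell by 0.83 ± 0.07 between E15 and P1 (limma, adjusted p = 2.7e-05). Of 9 other genes with cadherin repeats, 4 were tested, and the calsyntenins Clstn1 and Clstn3 rose by 1.05 ± 0.06 and 1.08 ± 0.08 between E15 and P1 (limma, adjusted p = 6.6e-06 and 1.1e-05).

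The 14 members that were not tested were Cdh1, Cdh3, Cdh5, Cdh15, Cdh16, Cdh17, Cdh19, Cdh22, Cdh23, Cdh26, Cdh29, Fat2, Pcdh11x and Pcdh12. Cdh16 was listed at 0 in all 12 groups. Cdh22 alone among them reached 1 FPKM in a group, with 1.44 FPKM in P1 subcerebral neurons. Cdh5, the cadherin of vascular endothelium, was at most 0.269 FPKM, and a list of 10 endothelial and mural genes summed to between 3.85 and 9.58 FPKM. Cdh1, the E-cadherin of epithelia, was listed at 0 in 11 groups.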

How the data were processed

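RNA of sorted neurons was sequenced from 24 libraries with poly(A) selection, per the labels' protocols. TopHat2 and Cufflinks were used with build mm9, per the submitters' processing notes; tool versions, the annotation and the method of pooling the libraries are not stated in those notes. The authors deposited 1 value per group, read here as FPKM from the use of Cufflinks and from the values, since the header names no unit. FPKM keeps no read counts, so depth is unknown and no counting interval can be given; whether strand was used is not given.

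Genes that reached 1 FPKM in 2 or more groups were fitted on log2(FPKM + 1) with limma 3.58.1 (R 4.3.3; variance trend, robust moderation), with additive stage and subtype terms (6 residual degrees of freedom) or with subtype by stage order (4). P-values were adjusted by Benjamini-Hochberg over all 13946 genes, with a threshold of 0.05. The scripts were tested on simulated data. Alternatives were a pseudocount of 0.1, a minimum of 5 FPKM, no filter, median-ratio scaling, quantile normalization, leaving out each stage or subtype, and fitting only the subtypes compared.

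The members, lists and motifs were chosen with earlier results of these data known. Values in every group are given for Cdh8, Cdh11, Pcdh8 and members passing a subtype comparison by at least 1 on the log2 scale; others are given by range, and up to 3 partners per list and comparison by size. Cdh2, Fat4 and Pcdh9 were given in full by a choice made after their values were seen. RefSeq (GRCm38.p6) supplied gene order for 42 of 43 members and promoters for 28; its coordinates are not those of mm9. Protein sequences were not used here.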

Additional observations from a re-analysis of the deposited data

Results flagged for a closer look

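In the slope tests, the difference between 2 subtypes changed with stage in 27 results of 16 members; each value is the slope difference of log2(FPKM + 1) per stage step, first subtype minus second. For callosal minus subcerebral neurons these were Cdh2 (0.18), Cdh24 (0.25), Fat4 (0.55), Pcdh15 (0.53) and Pcdh20 (1.06) with a positive value, and Cdh8 (-1.04), Pcdh1 (-0.29), Pcdh10 (-0.66) and Pcdh18 (-0.73) with a negative one. A positive value can come from a smaller fall: Cdh2, Cdh24 and Fat4 were lower at P1 than at E15 in both subtypes. For callosal minus corticothalamic neurons they were Cdh6 (0.64), Cdh13 (0.36), Cdh20 (0.91), Fat3 (1.25), Fat4 (1.00) and Pcdh20 (1.24), and in the other direction Cdh9 (-0.82). For subcerebral minus corticothalamic neurons they were Cdh4 (1.09), Cdh6 (0.59), Cdh20 (0.85), Fat3 (0.79), Fat4 (0.45) and Pcdh1 (0.37), and in the other direction Cdh2 (-0.23), Cdh9 (-1.03), Cdh24 (-0.38), Pcdh9 (-0.24) and Pcdh15 (-0.77).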

How the results depend on the processing

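Of 829 values of single called members under the alternatives, 638 stayed past the threshold, 191 no longer passed and 0 changed direction. Calls between callosal and corticothalamic neurons stayed within 1.5 times of the 13 in every alternative. Between callosal and subcerebral neurons the count of 12 became 3 when E16 was left out, 4 for E18 and 7 for P1, and between subcerebral and corticothalamic neurons the count of 14 was 4, 3 and 6. The background fell too: without E18 it was 7.29% and 1.8% of all genes. Between P1 and E15 the count of 20 was 12 without subcerebral neurons. The slope counts of 9, 7 and 11 were 0, 0 and 0 without E18 and 1, 0 and 0 without P1; with no filter the first 2 were 4 and 4. Without E15 the subtype counts of 12, 13 and 14 rose to 13, 18 and 19. Leaving out a stage, E15 included, lowers the residual degrees of freedom. The cause of these changes in the counts was not tested. No paired analysis was possible because the table holds 1 value per group, with no replicate numbers. Unknown depth limits what can be said of members under 1 FPKM.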
